A study of Mus musculus with 4 samples.

Results

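The peaks described here are sites in protein-coding sequence that were found in the YTHDC1 immunoprecipitate and in neither the IGF2BP2 nor the YTHDF2 immunoprecipitate of the same study. A peak was taken when its summit lay in coding sequence (CDS) of a GENCODE M21 protein-coding gene of mouse build GRCm38, lay in no annotated untranslated region (UTR) of that gene, and the peak overlapped no peak of the other lists by 1 bp or more. The peaks were thus selected on the authors' peak calls in all 3 libraries, together with the place of the summit. There were 1273 such peaks in 1061 genes. They were 49.3% of the 2580 coding peaks of YTHDC1 (exact binomial 95% interval 47.4 to 51.3), within a list of 9963 YTHDC1 peaks and 19866 peaks over the 3 lists. The other YTHDC1 coding peaks comprised 682 that overlapped peaks of both other readers, 502 that overlapped IGF2BP2 only and 123 that overlapped YTHDF2 only. For comparison, 1669 coding peaks of IGF2BP2 overlapped no peak of the other lists.

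The cells came from mouse bone marrow (lin- c-Kit+). The labels call them LIC without spelling it out, and they were cultured with IL3, IL6 and SCF. RNA bound by YTHDC1, by YTHDF2 or by IGF2BP2 was immunoprecipitated in 1 library each after UV crosslinking at 254 nm, and 1 library was the input, whose own signal was not analysed here. That the cells are from leukaemia is taken from the series title, and the labels used here give no strain, age or transgene. With 1 library per reader no difference between peak classes has a replicate check, no test was made, and all intervals cover counting error only. The files used here give no library totals, and the depth of sequencing is therefore unknown.

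The modification m6A, N6-methyladenosine, is laid down on RNA in the nucleus by a methyltransferase complex at a core sequence that often reads GGAC. YTHDC1 is the nuclear member of the YTH family of m6A readers and is known for roles in splicing, nuclear export and chromatin-associated RNA. YTHDF2 is a cytoplasmic YTH reader that promotes mRNA decay, and IGF2BP2 is an RNA-binding protein described as stabilising m6A-marked mRNA. In mRNA, m6A is known to be dense around stop codons and in long internal exons.

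3 sets of summit sequences show what the results below turn on: CG-rich first coding exons, purine tracts and the m6A core. Each stretch is 29 nt of the spliced GENCODE M21 main transcript (the complete coding transcript of the gene with the longest CDS), 5′ to 3′ on the gene's strand and centred on the summit. Summits were eligible when the 29 nt lay in 1 coding exon and in no annotated UTR, and the peak's −log10 q was 5 or more, with some chromosomes not used. The first set shows GC-rich exons that carry the start codon, with every CG dinucleotide in capitals. It consists of the 4 such peaks with the highest fold that had at least 70% G + C in the window of 50 nt on either side of the summit, which is also used below. The coordinates (GRCm38) are chr17:46555474-46555502 on the minus strand for Srf, chr9:65346890-65346918 on the plus strand for Pdcd7, chr7:30588449-30588477 on the minus strand for Kmt2b and chr7:46033842-46033870 on the plus strand for Nomo1.
Srf: gcctgaggCGgCGgCGgCGgcCGcCGggg
Pdcd7: agagggccCGggatCGggaggctgagCGg
Kmt2b: CGcCGcctgtgggctggtgCGCGagttca
Nomo1: gcCGgtgtgcCGCGgCGctgctgctgctg
The second set shows purine tracts, with each run of the hexamer GAGGAG in capitals, at 3 of the 4 peaks with the highest fold that had one within the 29 nt. The coordinates are chr8:95284258-95284286 on the minus strand for Cngb1, chr17:35988601-35988629 on the plus strand for Gnl1 and chr17:33917844-33917872 on the plus strand for Zbtb22.
Cngb1: aagGAGGAGGAGGAGGAGgaagaaaagga
Gnl1: gaaGAGGAGGAGgaactgagcagctcctg
Zbtb22: aagatgaggaaGAGGAGgaagatctggtg
The third set shows summits with the m6A core GGAC, in capitals, chosen in the same way. The coordinates are chr1:180333601-180333629 on the plus strand for Itpkb, chr14:70140919-70140947 on the minus strand for Ccar2, chr5:137315225-137315253 on the minus strand for Slc12a9 and chr2:122028881-122028909 on the plus strand for Eif3j1.
Itpkb: accctGGACagtgagagagaaggctctcc
Ccar2: cgaggcggctgaGGACctctgtgagatgg
Slc12a9: gaggaaggGGACtttgtgaatggtggtcg
Eif3j1: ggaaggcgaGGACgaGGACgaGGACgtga
Such a GGAC lay in the 29 nt of 163 of 1256 peaks, or 13.0% (11.2 to 15). The same share was 13.0% (10.5 to 15.7) for YTHDC1 coding peaks in all 3 lists and 15.3% (13.6 to 17.2) for coding peaks of IGF2BP2 only.

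The strongest peaks lay in genes of varied function. A peak's fold is the authors' value for the pileup at its summit over the local background. The pileup is the height of the stacked fragments there, as deposited, with no scaling stated. The fold was read as their ratio with 1 added to both, which is an assumption. Where the background is small, the fold is then close to the pileup plus 1, so ranks by fold partly follow the pileup. The 12 genes with the highest fold are given. Cngb1, a subunit of the cyclic nucleotide-gated channel of rod photoreceptors, led with a fold of 32.4 and a pileup of 74 in exon 14 of 33 (chromosome 8, 95284144 to 95284398). The peak lay on the purine tract shown above, whose window held 0 CG dinucleotides and 50.5% G + C, against 58.1% in the whole Cngb1 CDS. Gnl1, a GTP-binding protein gene, followed with a fold of 28.1 and a pileup of 41 in its last exon, 144 nt before the end of the CDS (chromosome 17, 35988526 to 35988698). Zfhx3, a zinc finger and homeobox transcription factor gene, had a fold of 25.4 and a pileup of 37 in a start-codon exon of 2768 nt. The nearest peak of another reader lay 754421 bp from it. Zbtb22, a BTB zinc finger gene, had a fold of 23.2 (chromosome 17, 33917604 to 33917956), and like Cngb1 and Gnl1 it carried its summit on a GAGGAG tract.

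Srf, the serum response factor gene, had a fold of 24.0 and a pileup of 27 in exon 1 of 7, 340 nt after the start codon (chromosome 17, 46555391 to 46555708). The window around it held 80.2% G + C, against 65.1% in the whole Srf CDS. The annotation has another gene, Gm26904, on the opposite strand under this summit, and the lists give no strand, so the Srf peak is uncertain. Pdcd7, a component of the minor spliceosome, had a fold of 23.7 and a pileup of 25 in exon 1 of 5, with 77.2% G + C at the summit and 65.9% in its CDS (chromosome 9, 65346828 to 65347019). Kmt2b, a histone H3 lysine 4 methyltransferase gene, had a fold of 23.2 and a pileup of 45 in exon 1 of 37, with 79.2% G + C at the summit and 59.3% in its CDS (chromosome 7, 30588363 to 30588637). These 3 peaks in first exons were thus at places richer in G + C than the rest of the same coding sequences.

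The remaining genes of the 12 were Tnrc18, a trinucleotide repeat gene (24.8), Ptms, which encodes the acidic nuclear protein parathymosin (24.7), Kctd1, a BTB domain gene (24.7), Emilin1, an extracellular matrix gene (24.1), and Podxl2, a sialomucin gene (23.0). The Ptms peak (chromosome 6, 124914364 to 124915023) was the longest of all 1273, at 660 bp, of which 416 bp lay in introns of the gene. Over all 1273 peaks the fold ranged from 2.90 to 32.4 with a median of 5.89, the pileup from 2 to 131 with a median of 6 and the length from 100 to 660 bp with a median of 118 bp. The −log10 q of the authors ranged from 2.02 to 112 with a median of 7.02. In 25.8% of the peaks the pileup was 3 or less, and 182 of the 1273 (14.3%) had a fold of 10 or more. These values also took part in deciding whether a peak was listed, so they are a description only. Coding peaks of YTHDC1 in all 3 lists had a median fold of 9.78, a median pileup of 11 and a median length of 182 bp. Longer peaks can overlap others more readily, and the part of length and pileup in the classes was not tested.

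Most genes had a single peak of the kind described: 895 of 1061 had 1, 135 had 2, 22 had 3, 6 had 4 and 3 had 6. The 5 genes with most are described next. Tnrc18 had 6 peaks with folds from 4.89 to 24.8, of which 3 lay in coding sequence of its main transcript and 3 in that of other transcripts. Kmt2d, a histone H3 lysine 4 methyltransferase gene with a CDS of 16764 nt, had 6 with folds from 3.81 to 15, and 4 of them lay in exon 11 of 55. Cic, the gene of the transcriptional repressor Capicua, had 6 with folds from 4.48 to 13.2, of which 5 lay in its start-codon exon of 2799 nt. Prrc2a, which encodes an RNA-binding protein described as an m6A reader, had 4 with folds from 6.54 to 13.7. Wdr81, a WD40 repeat gene, had 4 with folds from 7.68 to 11.3, all in exon 1 of 10.

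These genes differed in what the other readers had elsewhere in them. Kmt2d had 7 IGF2BP2 and 5 YTHDF2 peaks outside these sites, Prrc2a had 4 and 3, and Tnrc18 had 3 and 3. Cic and Wdr81 had 0 peaks of either reader, while YTHDC1 had 8 peaks in Cic and 4 in Wdr81.

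Peaks of YTHDC1 only lay near the start of coding sequences more often than coding bases do. Of the 1273 summits, 1256 lay in the CDS of the gene's main transcript, where position could be measured. The exon with the start codon held 421 of these 1256 summits, or 33.5% (30.9 to 36.2), whereas that exon held 19.0% of the coding bases of the same transcripts, averaged over the peaks. For YTHDC1 coding peaks in all 3 lists the share was 13.5% (11.1 to 16.4) with 10.1% of coding bases, and for coding peaks of IGF2BP2 only it was 9.30% (7.94 to 10.8) with 8.30%. YTHDC1 coding peaks shared with IGF2BP2 only had 17.3% (14.1 to 20.9) with 10.6% of coding bases, and those shared with YTHDF2 only 20.3% (13.6 to 28.5) with 16.4%. Within 200 nt after the start codon lay 23.3% of the summits (21.0 to 25.8), against 12.4% of coding bases. For YTHDC1 coding peaks shared with IGF2BP2 only this share was 15.5% (12.4 to 18.9), against 9.81%. It was 13.4% (10.9 to 16.2) for peaks in all 3 lists, against 11.1%. Coding peaks of IGF2BP2 only had 12.9% (11.3 to 14.6), also above their 9.33% of coding bases. YTHDC1 coding peaks shared with YTHDF2 only had 10.6% (5.75 to 17.4), against 11.8%. Within 200 nt before the end of the CDS, on the coding side of the stop codon, lay 9.71% (8.13 to 11.5), below the 12.4% of coding bases. It was also below for peaks in all 3 lists (8.69%, 6.68 to 11.1, against 11.1%) and those shared with IGF2BP2 only (7.23%, 5.11 to 9.87, against 9.81%). The first of these intervals ends near the share of coding bases and the second holds it. Coding peaks of IGF2BP2 only had 4.89% against 9.33%. Those shared with YTHDF2 only had 14.6% (8.91 to 22.1), against 11.8%.

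**Figure D1:**
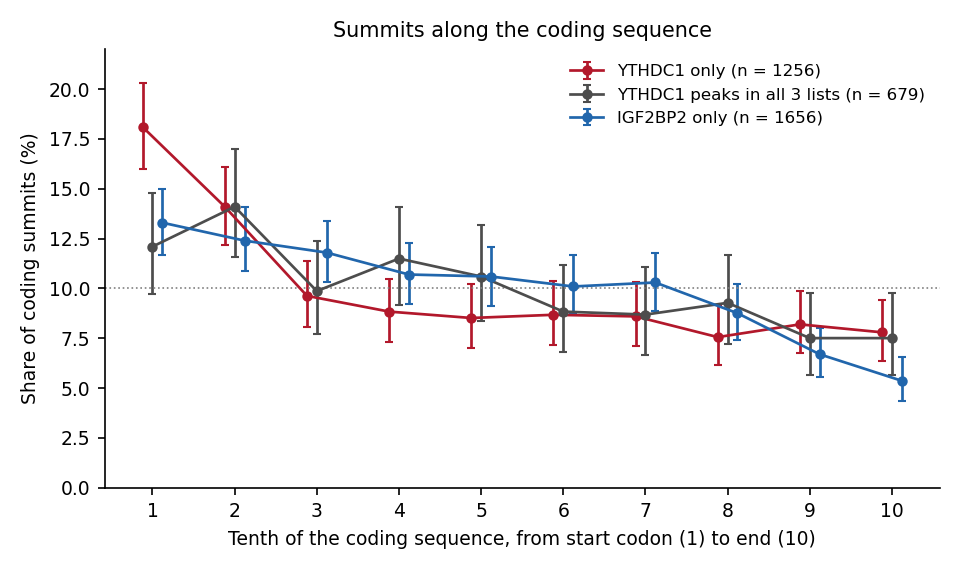
Share of coding summits (%, y axis) in each of 10 equal bins of the coding sequence, from the start codon to the end (x axis), for coding peaks of YTHDC1 only (red), YTHDC1 coding peaks in all 3 lists (grey) and coding peaks of IGF2BP2 only (blue). Bars are exact binomial 95% intervals and the dotted line is an even spread; the first bin holds 18.1% of the red summits, and from the third bin on the red shares lie between 7.56% and 9.63%.

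Divided into 10 equal bins, the CDS held 18.1% of the summits in the first bin (16.0 to 20.3) and 14.1% in the second (12.2 to 16.1). From the third bin to the last the share lay between 7.56% and 9.63%, as the plot of summits along the coding sequence shows. YTHDC1 coding peaks in all 3 lists had 12.1% in the first bin, 14.1% in the second and 7.51% in the last. Those of IGF2BP2 only had 13.3% in the first and declined to 5.37% in the last. The selection left out every summit in a UTR of any transcript of the gene, which removes some positions beside both codons, and the coding bases used for comparison do not take this into account.

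The exons under the summits were longer at the median than those under peaks in all 3 lists or of IGF2BP2 only. Their median length was 310 nt (281 to 351), against 188 to 209 nt (the 95% interval of the median) for YTHDC1 coding peaks in all 3 lists and 155 nt (151 to 159) for those of IGF2BP2 only. The transcripts themselves differed in the same order: averaged over coding bases, the exons of the same transcripts had medians of 396 nt, 288 nt and 268 nt in these classes. In each class the median exon under the summit was shorter than this value. A few long exons raise a mean more than a median, so this comparison cannot show whether summits favoured longer exons. Exons of 1000 nt or more held 25.6% of the summits (23.2 to 28.1), against 12.5% (10.1 to 15.2) for peaks in all 3 lists and 8.03% (6.77 to 9.45) for IGF2BP2 only. The YTHDC1 coding peaks shared with YTHDF2 only had 26.8% (19.2 to 35.6) in such exons and a median exon of 254 nt (209 to 427), with 442 nt averaged over coding bases, so long exons were not particular to YTHDC1-only peaks. Internal coding exons held 691 summits, the start-codon exon of a CDS of several exons 342, the stop-codon exon 144, and 79 lay in a CDS of a single exon.

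The peaks mostly stayed within the exon. At least 1 bp lay in an intron of the gene for 32.8% of them (30.2 to 35.4), against 54.7% (50.9 to 58.5) for YTHDC1 coding peaks in all 3 lists and 61.2% (58.8 to 63.6) for those of IGF2BP2 only. In the 123 YTHDC1 coding peaks shared with YTHDF2 only it was 31.7% (23.6 to 40.7), near the YTHDC1-only share. The share moved with exon length. It was 64.0% (59.3 to 68.5) in exons under 200 nt, 21.5% (18.0 to 25.4) in exons of at least 200 but under 1000 nt and 7.76% (5.09 to 11.2) in exons of 1000 nt or more. In exons under 200 nt it was 77.6% (72.8 to 82.0) for peaks in all 3 lists and 73.6% (71.0 to 76.1) for IGF2BP2 only. There these classes were closer to the YTHDC1-only share than over all exons. In exons of at least 200 but under 1000 nt they had 41.3% and 38.0%, both above the YTHDC1-only interval of 18.0 to 25.4. In exons of 1000 nt or more peaks in all 3 lists had 5.88%, below the YTHDC1-only share, and IGF2BP2 only had 15.8%, above it.

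Base composition at the summits differed from that of the surrounding coding sequence. The window of 50 nt on either side of the summit held a median of 60.9% G + C (60.4 to 61.4), and the whole CDS of the same transcripts 56.3% (56 to 56.6). The window was above its own CDS in 934 of 1256 peaks, or 74.4% (71.9 to 76.8). Over all 1256 the median difference, window minus CDS, was 4.08 percentage points (3.56 to 4.55). For YTHDC1 coding peaks in all 3 lists the window held 55.4% and the CDS 52.8%, and for those of IGF2BP2 only the window held 52.5% and the CDS 51.7%. YTHDC1 coding peaks shared with YTHDF2 only came nearer, with 59.4% (56.4 to 60.4) in the window and 56.8% in the CDS. Those shared with IGF2BP2 only had 57.4% (56.4 to 58.4) and 54.2%. The distribution in the plot of base composition has a long upper side for the YTHDC1-only windows, and their upper quartile was 68.3%.

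**Figure D2:**
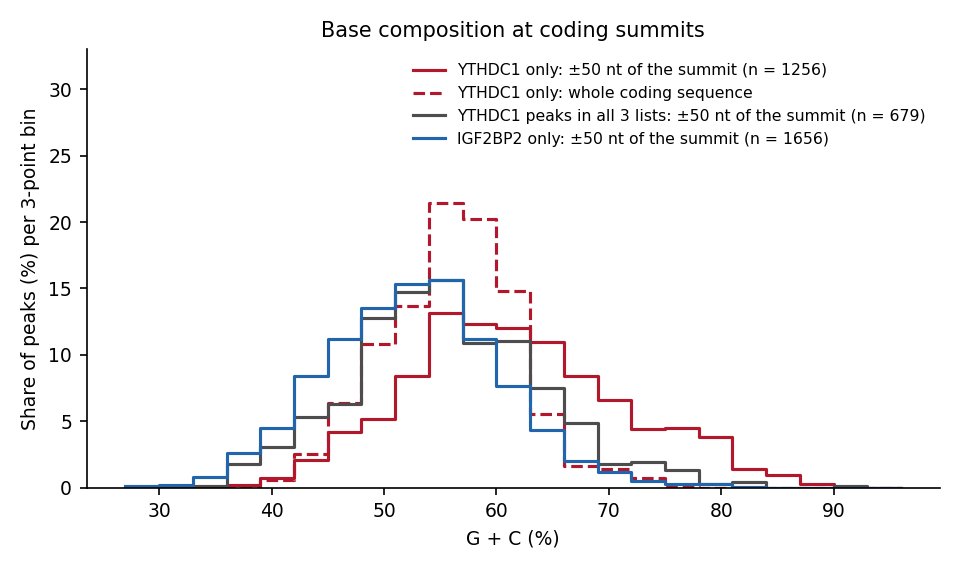
G + C content (%, x axis) within 50 nt of coding summits, as the share of peaks per bin of 3 percentage points (y axis), for YTHDC1 only (solid red), YTHDC1 peaks in all 3 lists (grey) and IGF2BP2 only (blue); the dashed red line is the whole coding sequence of the YTHDC1-only transcripts. The solid red line lies to the right of the others, with a median of 60.9%, and reaches 89.1%.

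The composition depended on the place in the CDS. At the 342 summits in start-codon exons the windows held a median of 70.3% G + C and 9.90 CG dinucleotides per 100 nt, while the whole CDS of these transcripts held 56.1% G + C. At the 691 summits in internal exons the medians were 57.4% and 2.97 CG per 100 nt, with 55.8% G + C in the CDS. Start-codon summits of YTHDC1 peaks shared with YTHDF2 only had a median of 69.8% G + C (20 summits), those shared with IGF2BP2 only 65.3% (73 summits), those in all 3 lists 63.4% (74 summits) and those of IGF2BP2 only 58.4% (129 summits). Coding sequence near the start codon is in general rich in CG in mammals, and its part in these values was not tested.

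Purine-rich sequence was frequent under the summits. The hexamer GAGGAG, read on the strand of the gene, lay in the windows of 398 of 1256 peaks, or 31.7% (29.1 to 34.3), whereas 13.1% of all coding positions of the same transcripts have one in such a window, and 8.75% of coding positions of all main transcripts. Its reverse complement CTCCTC lay in 4.94% of the windows (3.81 to 6.28), near the 4.82% of coding positions of the same transcripts. The hexamer was thus frequent on the strand of the gene and not on the other. In YTHDC1 coding peaks in all 3 lists the share was 43.6% (39.8 to 47.4) with 17.5% of own coding positions, and in those of IGF2BP2 only it was 20.5% (18.6 to 22.6) with 13.5%. The hexamer was thus above own coding positions in these classes too. Among YTHDC1-only peaks its share was 31.9% (27.0 to 37.1) in start-codon exons and 30.8% (27.4 to 34.4) in internal exons. A and G together made up a median of 58.4% of the windows and 52.8% of the CDS of the same transcripts.

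**Figure D3:**
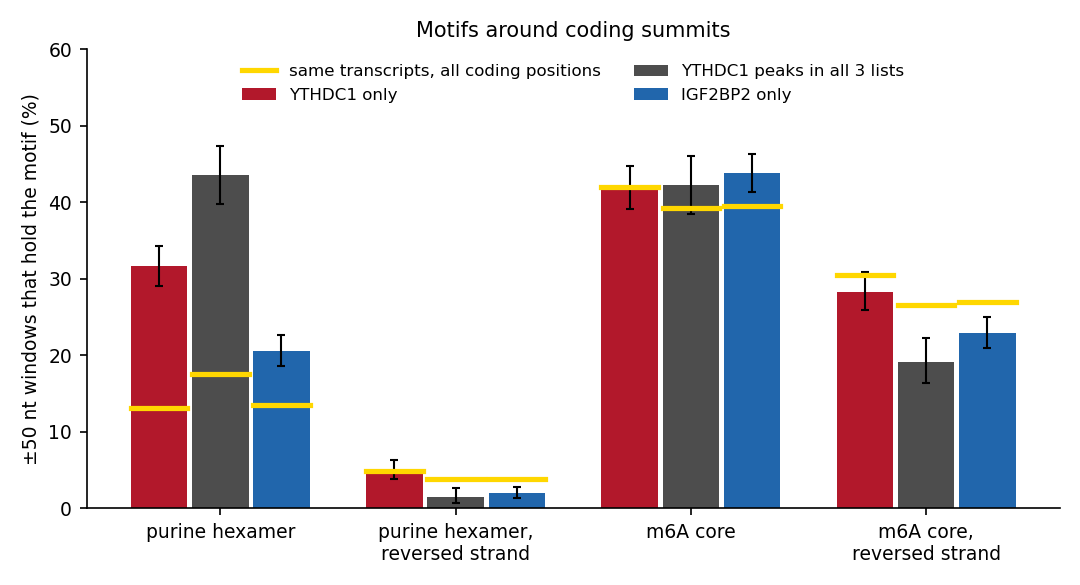
Share of windows of 50 nt on either side of coding summits (%, y axis) that hold the purine hexamer GAGGAG or the m6A core GGAC, each on the gene's strand and as the reverse complement (x axis), for YTHDC1 only (red), YTHDC1 peaks in all 3 lists (grey) and IGF2BP2 only (blue). Bars have exact binomial 95% intervals and yellow lines give the share of all coding positions of the same transcripts; the red bar is 31.7% against 13.1% for the purine hexamer and 41.9% against 42.0% for the m6A core.

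The m6A core GGAC was not more frequent under these summits than elsewhere in the same coding sequences. It lay in 526 of 1256 windows, or 41.9% (39.1 to 44.7), against 42.0% of all coding positions of the same transcripts and 37.7% of coding positions of all main transcripts. The longer form GGACT lay in 10.6% (8.94 to 12.4). GGAC lay in 46.4% (41.9 to 50.9) of the YTHDC1 coding peaks shared with IGF2BP2 only, against 40.5% of their own coding positions. It lay in 42.3% (38.5 to 46.1) against 39.2% for peaks in all 3 lists, and in 43.8% (41.4 to 46.3) against 39.5% for IGF2BP2 only. The reverse complement GTCC lay in 28.3% (25.9 to 30.9) of the YTHDC1-only windows, against 30.5% of own coding positions. A match in a window is no binding site, and a share near that of all positions says nothing about methylation, which was not measured in these files.

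A second purine hexamer, GAAGAA, lay in 15.5% of the YTHDC1-only windows (13.6 to 17.6), with 10.1% of own coding positions, and its reverse complement TTCTTC in 2.39%, with 3.35%. GAAGAA lay in 34.3% (30.7 to 38.0) of the windows of YTHDC1 coding peaks in all 3 lists, with 17.2% of own coding positions, and in 27.5% (25.3 to 29.7) of those of IGF2BP2 only, with 15.8%. GGGGCG lay in 6.77% (5.44 to 8.30) of the YTHDC1-only windows, with 2.35% of own coding positions. Its share was 14.9% (11.3 to 19.1) in start-codon exons, with 3.40% of own coding positions, and 3.62% (2.35 to 5.29) in internal exons, with 1.68%. Its reverse complement CGCCCC lay in 5.56% (3.38 to 8.54) of the start-codon windows, with 2.95% of own coding positions. Own coding positions here span the whole CDS and not the exon alone. The start-codon windows had a median of 70.3% G + C, against 56.1% in the whole CDS, so these pairs do not compare like places. All hexamers given here were chosen after values of these peaks had been seen, and the m6A core was not. A window counts once for each motif, and windows can hold several of them.

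**Figure D4:**
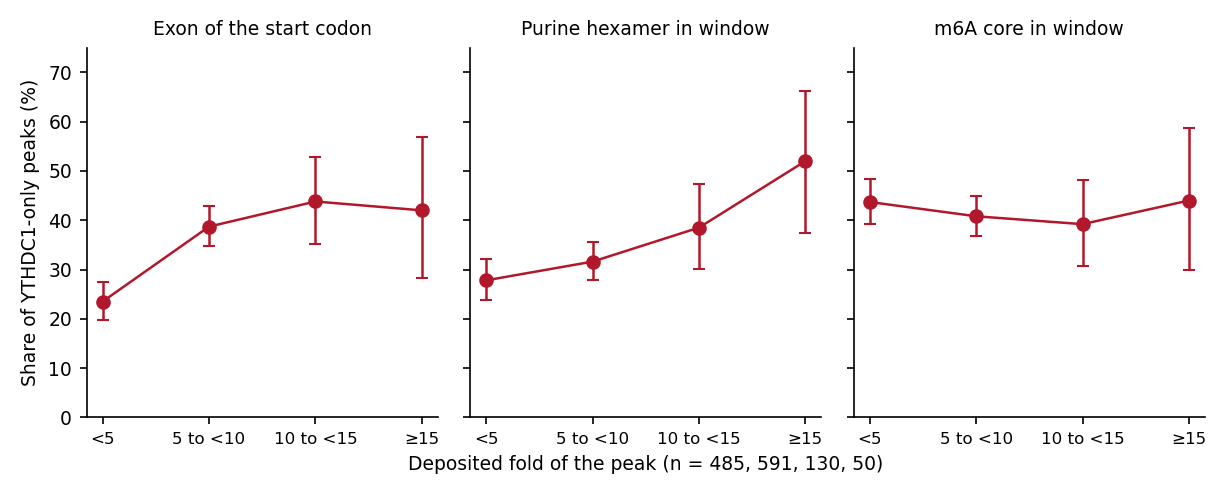
Share of YTHDC1-only coding peaks (%, y axes) with the summit in the start-codon exon (left), with the purine hexamer (middle) and with the m6A core (right) within 50 nt of the summit, by 4 classes of deposited fold (x axis; 485, 591, 130 and 50 peaks). Points are shares with exact binomial 95% intervals. The purine share is 27.8% below a fold of 5 and 52.0% at 15 or more, while the m6A core stays between 39.2% and 44.0%. The purine hexamer was chosen after values of these peaks had been seen.

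Stronger peaks differed from weaker ones in place and in purines, as the plot by fold shows. Below a fold of 5, 23.5% of the summits (19.8 to 27.5) lay in the start-codon exon, and the share was 38.7% (34.8 to 42.8) at folds of at least 5 but under 10, 43.8% (35.2 to 52.8) at least 10 but under 15 and 42.0% (28.2 to 56.8) at 15 or more. GAGGAG lay in 27.8% (23.9 to 32.1), 31.6% (27.9 to 35.6), 38.5% (30.1 to 47.4) and 52.0% (37.4 to 66.3) of the windows in the same classes. This hexamer was chosen after values of these same peaks had been seen, so its rise with the fold is a description only. GGAC lay in 43.7%, 40.8%, 39.2% and 44.0%, with overlapping intervals. Median peak length also grew with the fold, from 100 bp in the lowest class through 128 and 170 bp to 190 bp in the highest.

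The genes had other peaks more often than protein-coding genes as a whole. Of the 1061 genes, 407 (38.4%, 35.4 to 41.4) had no peak of any reader beside these, whereas 76.1% of all protein-coding genes had no peak of any reader at all. An IGF2BP2 or YTHDF2 peak elsewhere in the gene was present in 486 (45.8%, 42.8 to 48.9), against 14.4% of all 21951 protein-coding genes. YTHDC1 had a peak in an intron of 29.7% of the genes, against 11% of all, in a UTR of 23.5%, against 6.74%, and a coding peak shared with another reader in 222 (20.9%), against 877 of all. Each of the 1061 genes was selected for having a YTHDC1 peak, which the genes as a whole were not. In the 488 genes with YTHDC1 coding peaks in all 3 lists the intron and UTR shares were higher, 48.6% (44.0 to 53.1) and 30.5% (26.5 to 34.8). The genes also had longer coding sequences, with a median of 2032 nt against 1179 nt over all genes, and expression is not in the files, so neither was taken into account in these shares.

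Distances to peaks of the other readers are a description only, since the selection removed every overlap. The nearest such peak lay at a median distance of 18311 bp (15708 to 22286), in the same gene or not, within 500 bp for 114 of the 1273 (8.96%) and within 10000 bp for 513 (40.3%). Just inside the selection were a Kdm4b peak 4 bp from an IGF2BP2 peak, a Nub1 peak at 6 bp and a Numa1 peak at 8 bp, with folds of 6.85, 3.93 and 6.87. Just outside it were a Usp36 peak that overlapped a YTHDF2 peak by 2 bp, a Cd44 peak that overlapped an IGF2BP2 peak by 8 bp and a Ddx54 peak that did so by 12 bp, with folds of 2.94, 2.94 and 5.15. Assuming a pseudocount of 1 in the fold, the background behind the peaks had a median of 2.61 times the smallest background of the list, against 8.69 times for YTHDC1 coding peaks in all 3 lists, 1.91 times for those shared with IGF2BP2 only, 1.74 times for those shared with YTHDF2 only and 1.13 times for coding peaks of IGF2BP2 only in their own list. In units of the deposited pileup the median background was 0.0493 for the YTHDC1-only peaks and 0.164 for those in all 3 lists. The smallest background of the list was 0.0189. The background was at that smallest value for 25.4% of the peaks (23.0 to 27.9) and 19.4% (16.5 to 22.5) of those in all 3 lists.

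Chromatin regulators were the gene list with the highest share of members. Of 64 such genes, 23 (35.9%, 24.3 to 48.9) had a coding peak of YTHDC1 only, whereas 4.83% of all protein-coding genes had one. The median over these 23 genes of the highest fold was 8.34, against 6.01 over all 1061 genes. The 23 genes had 46 such peaks and the 1061 had 1273, and the highest fold of a gene can rise with its number of peaks. After Kmt2b came Arid1a, a subunit of the BAF remodelling complex, with a fold of 18.4 and a pileup of 34 in exon 1 of 20 (chromosome 4, 133753360 to 133753566), at a window of 79.2% G + C. Tet3, an enzyme that oxidises methylcytosine, had 3 peaks, the strongest with a fold of 18.1 and a pileup of 26 in its start-codon exon. Nsd2, a histone H3 lysine 36 methyltransferase gene, had 1 with a fold of 15.7 and a pileup of 15 in exon 8 of 23. Of the 64 genes, 58 had a YTHDC1 peak of any kind and 53 a peak of another reader, and their median CDS was 5140 nt. Over all 21951 protein-coding genes, 4385 (20.0%) had a YTHDC1 peak of any kind and 3166 (14.4%) a peak of another reader. Long coding sequences offer more places for a peak, and the share was not adjusted for length, expression or having any YTHDC1 peak. The same holds for the lists below.

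**Figure D5:**
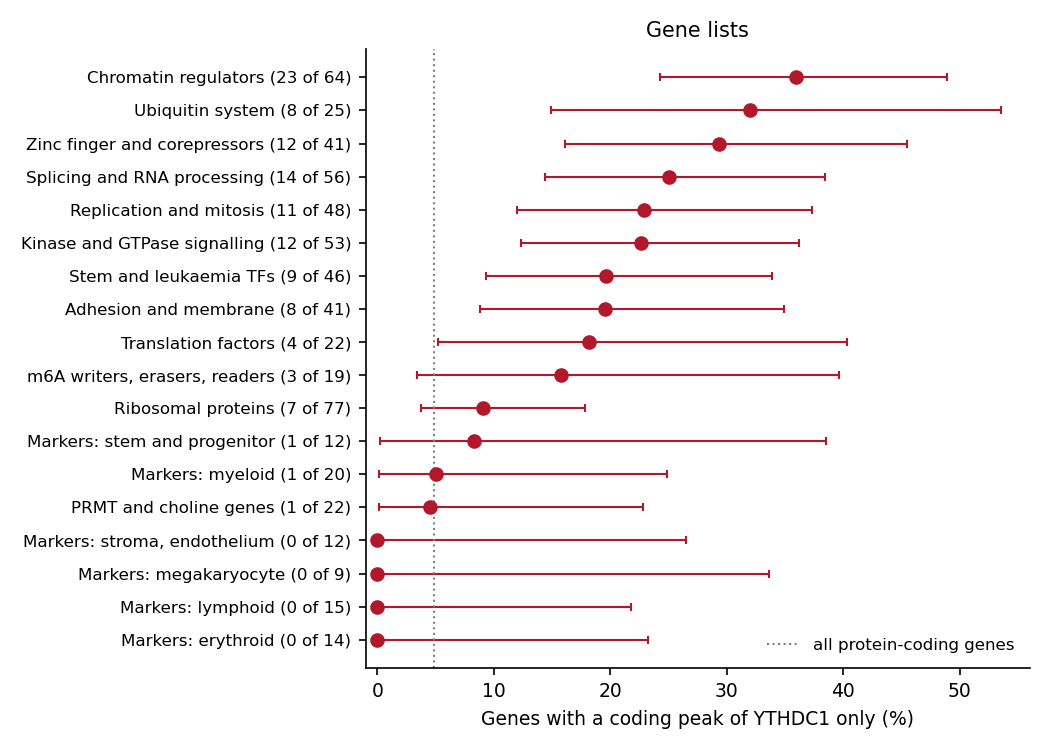
Share of the genes of each list (%, x axis) that had a coding peak of YTHDC1 only, with the numbers of genes beside each list name (y axis). Points have exact binomial 95% intervals, and the dotted line marks 4.83%, the share over all protein-coding genes; chromatin regulators are at the top with 35.9%, and 4 marker lists of other cell types are at 0.

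Zinc finger and corepressor genes had peaks in 12 of 41 (29.3%, 16.1 to 45.5) and transcription factors of blood stem cells and leukaemia in 9 of 46 (19.6%, 9.36 to 33.9). After Zfhx3, the zinc finger gene Zfp646 had a highest fold of 19.8, Zfhx2 one of 12.8 and Zfp36l2, which encodes a protein that binds AU-rich elements, one of 11.5. Genes on the opposite strand lie under the summits in Zfhx2 and Zfp36l2, and also under those in Lmo2 and Nub1 that are named here. Among the transcription factors, Sox4 had a fold of 16.9 in its single exon, Irf8, a factor of monocyte and dendritic cell development, 14.6 in exon 7 of 9, and Klf2, a Krüppel-like factor, 13.8 in exon 2 of 3. None of these 3 genes had an IGF2BP2 or YTHDF2 peak. Lmo2, a partner in the stem cell factor complex around TAL1, had a fold of 8.51, with 1 IGF2BP2 and 1 YTHDF2 peak elsewhere.

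Genes of splicing and RNA processing had peaks in 14 of 56 (25%, 14.4 to 38.4). A YTHDC1 peak of any kind was present in 52 of these 56, against 20.0% of all protein-coding genes. In the other lists of this paragraph it was present in 8 of 19 m6A genes, 20 of 22 translation factors and 40 of 77 ribosomal protein genes. Sf3b2, a U2 snRNP component, had a fold of 12, Cdk13, a kinase of transcription elongation, 11.7, Son, a nuclear speckle protein, 11.3, and Srsf9, an SR protein, 10.9. The Cdk13 and Srsf9 peaks lay in exon 1, at 76.2% and 81.2% G + C. Of the 19 genes of m6A writers, erasers and readers, 3 had a peak (15.8%, 3.38 to 39.6), and the interval holds the 4.83% of all genes. Zc3h13, a subunit of the writer complex, had a fold of 15.5 and a pileup of 86 in exon 12 of 19 (chromosome 14, 75327634 to 75328051). Rbm15b, an adaptor of that complex, had a fold of 11.4 and a pileup of 11, and Ythdf1, a cytoplasmic reader, 9.45 and 10. Translation factors had peaks in 4 of 22 (18.2%, 5.19 to 40.3), namely Eif4g1 (9.75), Eif4h (6.87), Eif4b (5.89) and Eif3c (4.55). Ribosomal protein genes had them in 7 of 77 (9.09%, 3.73 to 17.8), an interval that holds the 4.83% of all genes. Rps16 led with 10.3, followed by Rps14 (7.52), Rpl4 (6.01) and Rps6 (6.01), and processed pseudogenes of such genes can share reads with them, so these peaks are uncertain.

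The ubiquitin system had peaks in 8 of 25 genes (32%, 14.9 to 53.5), which have a median CDS of 6075 nt. The large ligase genes Birc6 (9.37), Herc2 (7.85), Rnf213 (7.13) and Mycbp2 (6.87) led the list. Replication and mitosis genes had them in 11 of 48 (22.9%, 12 to 37.3), led by Rrm1, the large subunit of ribonucleotide reductase (8.44), the helicase subunit Mcm7 (7.73), the cyclin gene Ccnd3 (5.82) and the polymerase gene Pola1 (5.72). Kinase and GTPase signalling genes had them in 12 of 53 (22.6%, 12.3 to 36.2), led by Smad7, an inhibitor of TGF-beta signalling (10.2), the exchange factor genes Dock10 (9.81) and Arhgef1 (8.17), and Rptor, a subunit of mTORC1 (8.23). Adhesion and membrane genes had them in 8 of 41 (19.5%, 8.82 to 34.9), led by the integrin genes Itgal (6.01) and Itgb2 (5.86), then Celsr1 (4.91) and Csf2rb (4.91), a cytokine receptor subunit. The median of the highest fold per gene was 4.29 in the signalling list and 4.87 in the adhesion list, below the 8.34 of the chromatin list. The highest fold of a gene can rise with its number of peaks, which was not taken into account. The 12 signalling genes had 13 peaks, the 8 adhesion genes 10 and the 23 chromatin genes 46.

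The genes that the series title names had none of these peaks. Prmt6, an arginine methyltransferase gene, had 2 IGF2BP2 peaks and 0 of YTHDC1, and Mfsd2a, a lysophospholipid transporter gene, had 1 YTHDC1 peak, which was not of this kind, beside 4 YTHDF2 peaks and 1 IGF2BP2 peak. Of 22 genes of arginine methylation and choline phospholipids, Chkb, a choline kinase gene, alone had any (4.55%, 0.115 to 22.8), with 2 peaks of which the stronger had a fold of 3.93 and a pileup of 3. Of 12 marker genes of stem and progenitor cells, Sox4 alone had a peak and 8 had a YTHDC1 peak of any kind. Of 20 myeloid markers, Irf8 alone had one and 5 had a YTHDC1 peak. The markers of lymphoid, erythroid and megakaryocytic cells and of stroma and endothelium had 0 of 15, 0 of 14, 0 of 9 and 0 of 12, and any YTHDC1 peak in 0, 1, 1 and 3. Over all protein-coding genes, 20.0% had any YTHDC1 peak. The intervals of the choline and of all marker lists hold the 4.83% of all genes, so these low counts do not set the lists apart. A peak list gives no expression level, so the labelled cell type could be checked no further.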

How the data were processed

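1 peak list per reader was used, and per the labels each rests on 1 library. The submitters' processing notes name bcl2fastq 2.17, Trim Galore, HISAT2 and build GRCm38, and the peak caller is not given in the sources used here. The deposited lists give a fold of pileup over local background, and, on the −log10 scale, q-values and p-values. The fold was assumed to be a ratio with 1 added to both. The deposited score is the −log10 q times 10, as a whole number. The pileup signal and the length of each peak are named per the file headers, which state no scaling. Peaks were joined to the GENCODE M21 annotation by summit, with Python 3.11.15, numpy 2.4.6 and scipy 1.17.1, and overlaps were checked with bedtools. Windows of 50 nt on either side of the summit come from the spliced main transcript. Each comparison value for own coding sequence is the exact share over all its coding positions, averaged over peaks. Shares have exact (Clopper-Pearson) and medians order-statistic 95% intervals. The peaks, lists and measures were chosen with earlier results of these data known. The genes named are the 12 with the highest fold at a −log10 q of at least 5, the 5 with most peaks, up to 4 per list, 3 on each side of the selection, and Prmt6 and Mfsd2a. Nomo1, Itpkb, Ccar2, Slc12a9 and Eif3j1 are named for their sequences and Eid1 and Cstf2t were chosen after their values were seen. The sequence of 1 summit is not reported here. Alternatives were a −log10 q, fold or pileup of at least 5, other definitions of overlap and of coding sequence, autosomes and X alone, and a window of 100 nt on either side.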

Additional observations from a re-analysis of the deposited data

How the results depend on the processing

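The 9 summary results were recomputed under 8 alternatives, and 47 of 65 values stayed within the interval of the reported one (counts within 1.5 times). The number of peaks was 803 at a YTHDC1 pileup of at least 5, against 1273. The share of YTHDC1 coding peaks found in no other list was 44.8% at that pileup, 54.5% when only an overlap of 50% of the peak counted as shared, and 44.9% when a peak within 500 bp did, against 49.3%. Against a reported 33.5%, the share in the start-codon exon was 37.1% at a fold and 40.0% at a pileup of at least 5. With the CDS of the main transcript it was 30.1%. The 19.0% of coding bases belongs to the reported peaks and was not recomputed for the alternatives. The GGAC share was 66.6% in windows of 100 nt on either side, which hold more sequence. Median G + C was 62.4% at that fold and 62.4% at that pileup, and 60.2% in those wider windows. The median fold was 7.22 at a −log10 q of at least 5, 7.55 at that fold and 7.52 at that pileup, by construction. The share of genes with another reader's peak was 42.6% at that −log10 q, 35.7% at that fold, 49.8% with the 50% overlap and 42.1% within 500 bp, against 45.8%. The hexamers were not recomputed. No paired analysis was possible because each reader has 1 library. With 1 library each, absence from another list at a given depth is not absence of binding, and the depth is unknown.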

Other observations

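Peaks over genes on both strands form a small group among the YTHDC1-only coding peaks. In 109 of 1273 (8.56%, 7.08 to 10.2) the annotation has another gene on the opposite strand under the summit, and 17 (1.34%) have several genes that meet the selection. The strongest after Srf were 2 genes of a single exon. Eid1, which encodes an inhibitor of differentiation that binds EP300, had a fold of 22.6 and a pileup of 29 (chromosome 2, 125673276 to 125673457), with Shc4 on the opposite strand. Cstf2t, a retrogene of a cleavage stimulation factor subunit, had a fold of 22.6 and a pileup of 22 (chromosome 19, 31084274 to 31084567), with Prkg1 on the opposite strand. Since the lists give no strand, these peaks could belong to either gene.

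The peaks were spread over the chromosomes. Chromosome 5 had the highest share of protein-coding genes with such a peak, 95 of 1260 (7.54%), followed by chromosome 19 with 6.68% and chromosome 17 with 6.53%. On X the share was 26 of 948 (2.74%), the lowest after Y, where it was 0 of 183, and no sex of the animals is given in the labels used here.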
